A study of Mus musculus with 4 samples.

Results

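The comparison described here sets RAW264.7 cells given the Manβ1-4GlcNAc disaccharide (ManGn) beside RAW264.7 cells given the water of a mock extraction. It uses 2 of the 4 RNA-seq libraries of the series, chosen by their labels, and 10892 of the 17655 genes in the expression table, those with at least 1 FPKM (fragments mapped to a gene, scaled to its transcript length and to the depth of the library) in 1 of the 2 libraries. RAW264.7 is a mouse macrophage line transformed by the Abelson leukaemia virus, used here at passages 2 to 10. Cells of all 4 libraries were permeabilized with digitonin, a detergent that opens the plasma membrane to small sugars, and were kept for 24 h with 10 µM ManGn in water, with 10 µM of the free oligosaccharide pool of Trex1-/- cells (fOS), with water from a mock fOS extraction (mock extraction), or with ultrapure water. Sample titles carry the letter A for ManGn and water and B for the mock extraction and fOS, so the pair crosses these arms, and the labels do not say what else the letters stand for. Each condition had 1 library, so every difference given here is a difference between 2 libraries, with no replicate check, and the ligand, the vehicle and the arm cannot be told apart. Values lower with ManGn are equally values higher with the mock extraction.

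ManGn is a mannose linked to N-acetylglucosamine, the core disaccharide left when N-glycans and their lipid-linked precursors are broken down. Macrophages answer many danger signals through NF-κB, which drives chemokine and cytokine genes, and through interferon regulatory factors, which drive interferon-stimulated genes. They also carry stress programs, among them the ATF4 program of amino acid shortage and the unfolded protein response of the endoplasmic reticulum (ER), and they digest what they take up in lysosomes acidified by a proton pump.

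The number of reads behind the FPKM was estimated from the steps of whole reads in low values. It came to 9980000 for ManGn, 10020000 for the mock extraction, 10600000 for fOS and 10020000 for water. The 10 macrophage markers in the table were at 1 FPKM or more in every library. Of 3 T cell markers, 2 were under 1 FPKM in every library and Cd3d was at 0.59 with ManGn, 0.33 with fOS, 0.44 with the mock extraction and 1.08 with water. All 5 B cell markers, 5 fibroblast markers, 3 epithelial markers and 3 endothelial markers were under 1 FPKM in every library. In such bulk RNA, fewer cells of a type and less RNA per cell cannot be told apart.

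The 2 libraries were close for most genes. A gene was called higher or lower when its FPKM, with 0.1 added to both values, differed by at least 2-fold. By this measure 392 genes were higher with ManGn (3.6% of the genes compared) and 387 were lower (3.55%), 779 in all (7.15%). The median log2 ratio of ManGn over the mock extraction was -0.02, with quartiles at -0.31 and 0.25. The share called either way was 9.1% for ManGn over fOS, 9.4% for the mock extraction over fOS, 17.1% for ManGn over water, 16.2% for the mock extraction over water and 29% for water over fOS. The mock extraction was therefore the library nearest to ManGn by this count, although water shared the letter of ManGn. The 166 genes at 500 FPKM or more in 1 of the 2 libraries had a median log2 ratio of -0.21. Of these, 7 were higher with ManGn and none was lower. The 7 were Fth1, Spp1, Ctsd, Hsp90b1, Hspa5, Ccl3 and Mt2.

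**Figure D1:**
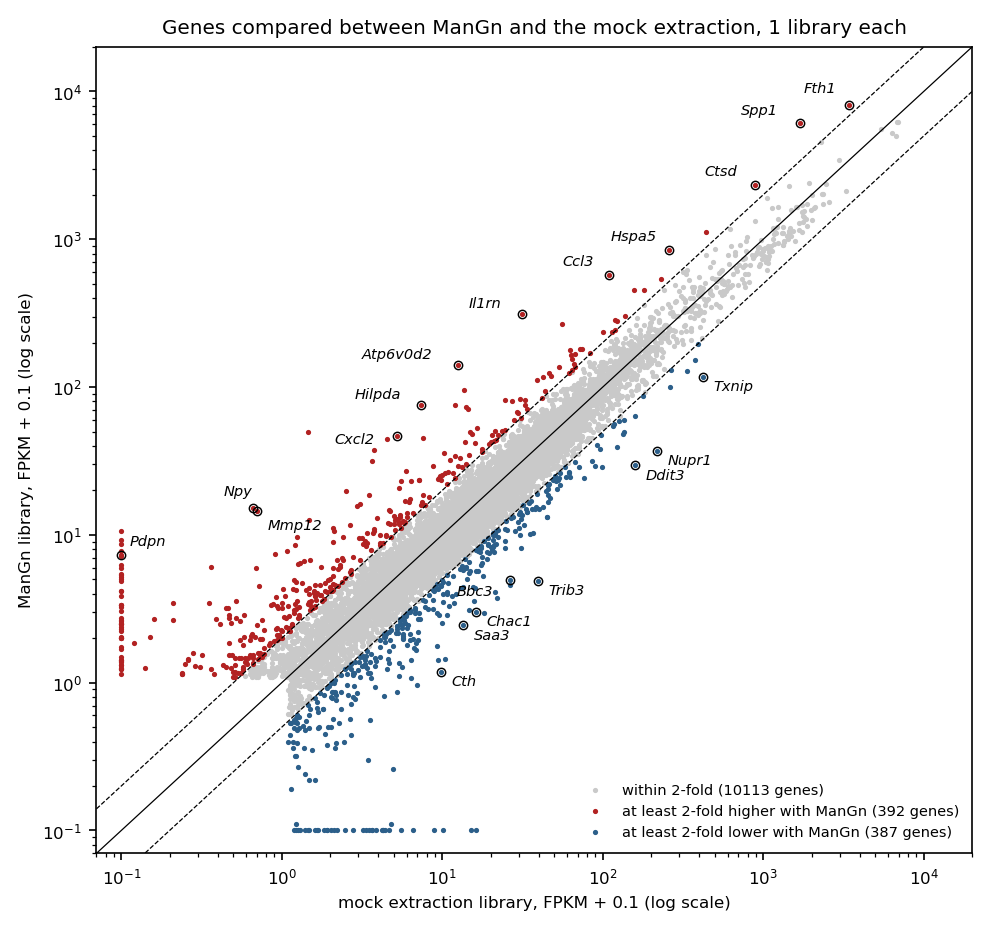
Each point is 1 of the 10892 genes compared, with FPKM + 0.1 in the mock extraction library on the x axis and in the ManGn library on the y axis, both on log scales. The solid line marks equal values and the dashed lines 2-fold. Red points are the 392 genes higher with ManGn and blue points the 387 lower, and named genes are circled. Ferritin, osteopontin and cathepsin D (Fth1, Spp1, Ctsd) stand above the upper line among the most abundant transcripts, and Nupr1, Ddit3 and Txnip stand below the lower line.

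The genes were read through 50 lists of whole pathways and families, each described by its counts and its median beside those of all genes. CC chemokines had the highest list median, 2.26 on the log2 scale over 7 genes, and the ATF4 list the lowest, -0.94 over 46 genes. The chemokine median is the value of the low gene Ccl7 and was 0.99 with a pseudocount of 1.

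**Figure D2:**
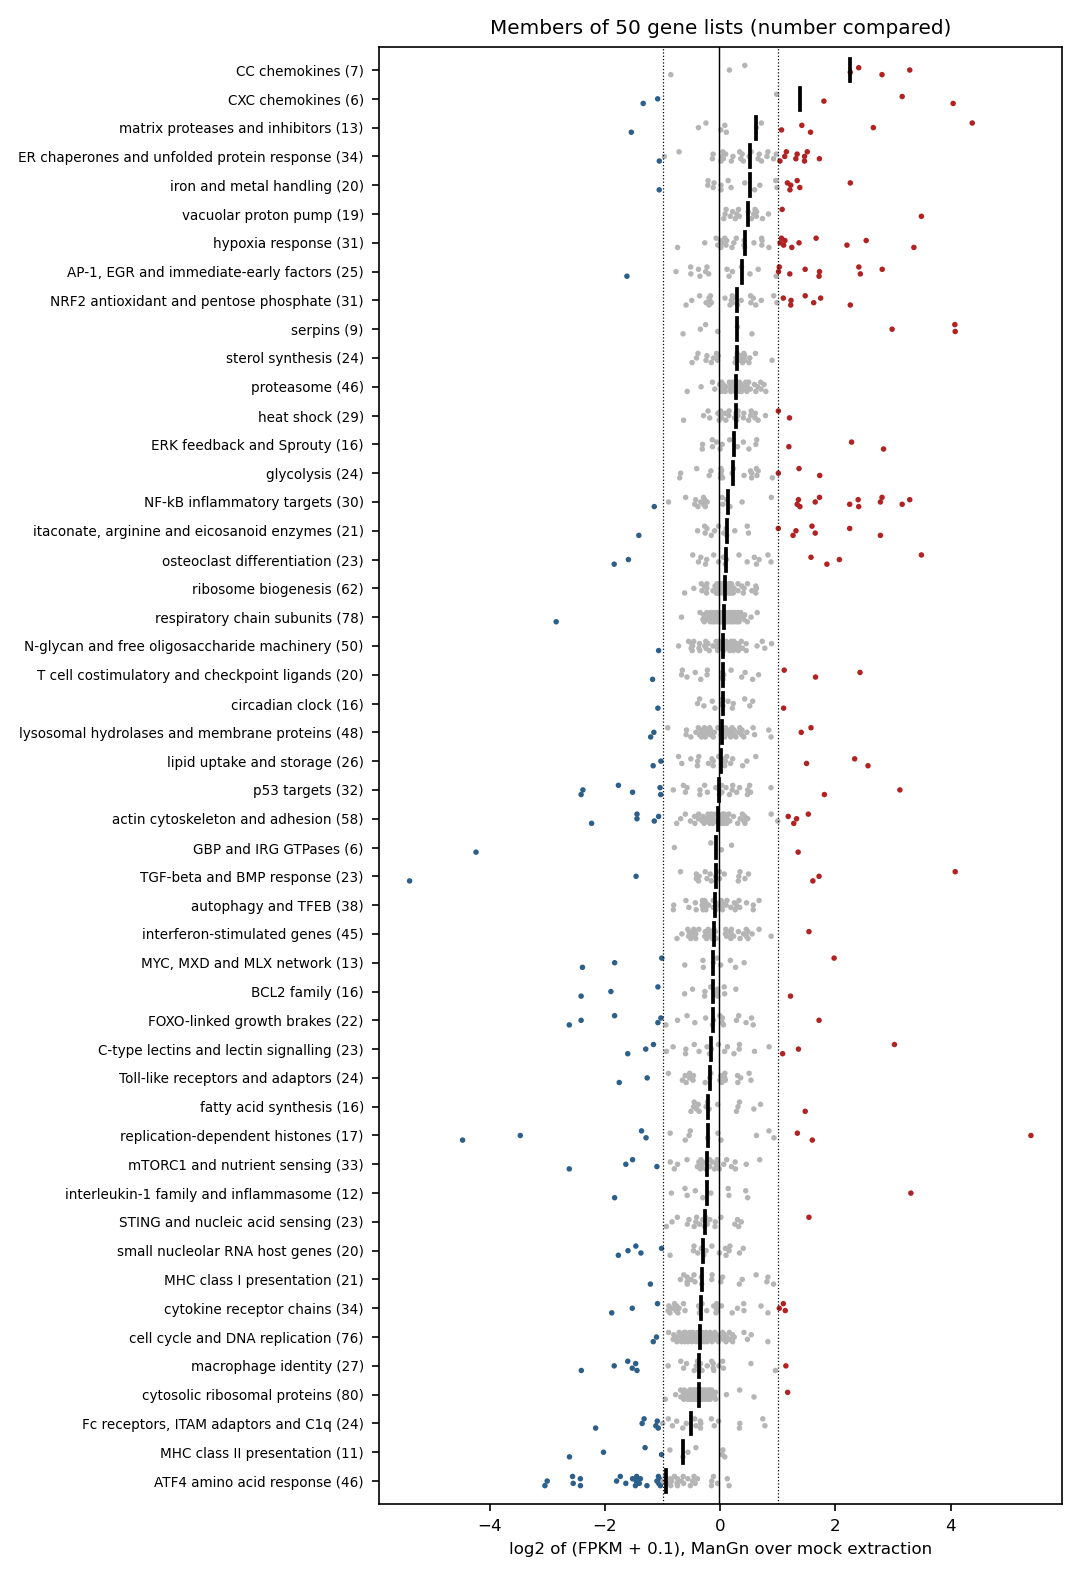
Each row is 1 of 50 gene lists with the number of members compared, and each point is a member's log2 ratio of FPKM + 0.1, ManGn over mock extraction. Black bars are list medians, the solid line is the median of all genes compared (-0.02) and the dotted lines mark 2-fold. CC chemokines stand at the top with a median of 2.26 and the ATF4 list at the bottom with -0.94, where 21 of 46 points lie beyond the left dotted line.

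The ATF4 amino acid list held the largest group of lower genes. ATF4 is the transcription factor made when translation is slowed by amino acid shortage or other stress, and it turns on amino acid synthesis, import and tRNA charging. Of 46 members compared, 21 were at least 2-fold lower with ManGn, none was higher, and 44 were below a log2 ratio of 0. Among all genes compared 3.55% were lower. Atf4 itself was at 99.97 FPKM with ManGn against 261.45 with the mock extraction, and at 78.94 with fOS and 79.23 with water. The mock extraction library thus stood above the others, and it held the highest of the 4 values for 39 of the 46 members, against 19.3% of all genes compared. The median of the list over water was -0.03 for ManGn, -0.72 for fOS and 0.80 for the mock extraction. For this list ManGn lay near water and the mock extraction above it.

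The lowest ratios in the list belonged to stress regulators and to enzymes of sulfur amino acid and glutathione turnover. Cth, which makes cysteine from cystathionine, was at 1.09 FPKM with ManGn against 9.71 with the mock extraction, 11.2% of the mock level, and at 0.57 with fOS and 3.35 with water. Trib3, a pseudokinase that restrains ATF4, was at 4.79 against 39.13 FPKM, with an estimated 97 reads against 794, and at 0.41 with fOS and 4.85 with water. The ratio of these reads was 0.123 with an exact 95% interval of 0.0983 to 0.152. Such intervals cover counting error only, since culture-to-culture spread was not measured. Nupr1, a small stress-induced nuclear protein, was at 37 FPKM with ManGn against 219.26 with the mock extraction, and at 18.27 with fOS and 127.84 with water. Chac1, which degrades glutathione, was at 2.93 against 16.21 FPKM, and at 1.07 with both fOS and water. Ddit3, which encodes the pro-apoptotic factor CHOP, was at 29.55 against 159.35 FPKM, a read ratio of 0.185 (0.162 to 0.211), and at 8.49 with fOS and 25.76 with water. In each of these genes the ManGn value was well under the mock value, and the fOS value was lower still.

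Enzymes, carriers and synthetases of amino acid metabolism on the same list were also on the lower side. Aldh1l2, a mitochondrial folate enzyme, was at 3.62 FPKM with ManGn against 21.72 with the mock extraction, a log2 ratio of -2.55, and at 0.89 with fOS and 30.92 with water. Among the 6 enzymes of serine, glycine and folate metabolism 3 were at least 2-fold lower, beside 3.55% of all genes. Their median was -1.02. These enzymes, and the transporters and synthetases below, are parts of the list counted above. Asns, asparagine synthetase, was at 47.83 against 132.89 FPKM, and Pck2, the mitochondrial phosphoenolpyruvate carboxykinase, at 9.98 against 34.98. Both were named after their values were seen. All 7 amino acid transporters of the list were below 0 and 4 were at least 2-fold lower, with a median of -1.07. Slc7a5, the large neutral amino acid carrier, was at 24.29 against 75.86 FPKM. The neutral amino acid carrier Slc1a4, not on the list but among the 20 lowest genes, was at 1.32 against 9.36 FPKM, with 1.41 with water. All 12 aminoacyl-tRNA synthetases were below 0, from -1.07 to -0.12, and only Aars passed 2-fold. Atf3, a factor with several inputs besides ATF4, was at 69.68 against 62.67 FPKM and was singled out after its value was seen.

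**Figure D3:**
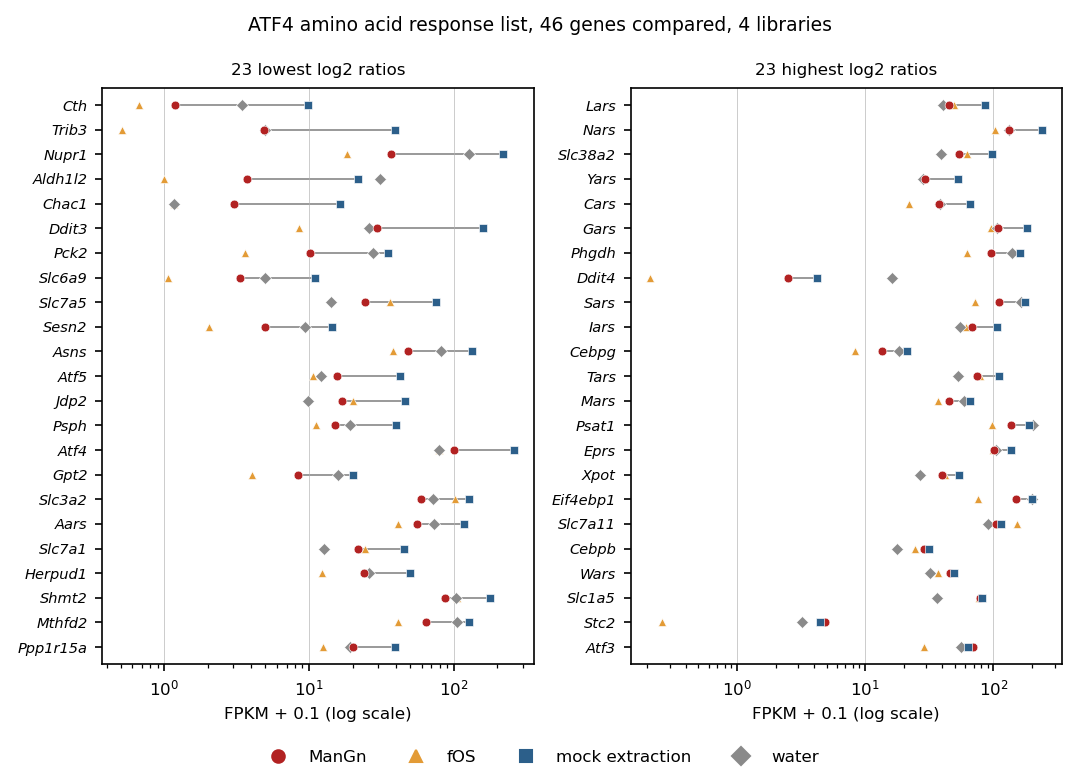
FPKM + 0.1 on log axes for the 46 ATF4 list genes compared, in the ManGn (red circles), fOS (orange triangles), mock extraction (blue squares) and water (grey diamonds) libraries, ordered by the log2 ratio of ManGn over mock extraction, with 23 genes in each panel. A grey line joins ManGn and the mock extraction. The blue square is the rightmost mark for 39 of the 46 genes, and the red circle is left of it for 44.

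ATF4 binds with C/EBP partners to a composite element whose core is TGATGCAA (TTGCATCA on the other strand). The RefSeq promoter windows of build GRCm38.p6, which run from 250 bases before to 50 bases after each start, were available for 8684 of the genes compared and were searched on both strands. The core was present for 0.737% of these genes, 1.52% of 264 genes higher with ManGn and 3.93% of 280 genes lower with ManGn. It was present for 27% of 37 ATF4 list members with a window and for 27.8% of the 18 among them that were lower. The list consists of known ATF4 targets, so its share is a description of the list. The same list supplied 5 of the 11 lower genes that hold the core. Stretches of 60 bases around the core are shown for the 5 lower list members that hold it, to show the letters matched. A match is a string in the window, and binding was not measured here. The stretches are given 5′ to 3′ on the strand of the gene, with the core in capitals.
Chac1 (chr2:119351023-119351082, plus strand): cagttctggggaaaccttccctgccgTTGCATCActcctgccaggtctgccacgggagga
Nupr1 (chr7:126625547-126625606, minus strand): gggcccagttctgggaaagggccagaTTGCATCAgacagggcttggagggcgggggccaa
Herpud1 (chr8:94386291-94386350, plus strand): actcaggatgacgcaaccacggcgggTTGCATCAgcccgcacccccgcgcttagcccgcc
Aars (chr8:111033704-111033763, plus strand): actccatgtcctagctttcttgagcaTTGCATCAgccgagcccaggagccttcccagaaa
Jdp2 (chr12:85599357-85599416, plus strand): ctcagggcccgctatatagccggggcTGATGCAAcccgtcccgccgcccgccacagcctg

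In these windows the core began 193 bases before the start in Chac1, 110 in Nupr1, 112 in Herpud1 and Aars, and 33 in Jdp2. It read TTGCATCA in the first 4 and TGATGCAA in Jdp2. Herpud1, an ER-associated degradation component, was at 23.73 FPKM with ManGn against 49.51 with the mock extraction, and Aars, alanyl-tRNA synthetase, at 56.02 against 117.96. Jdp2, an AP-1 family repressor, was at 16.69 against 45.82 FPKM and at 9.69 with water. These 3 genes, like Nupr1 and Chac1, had their highest value in the mock extraction library. The other motifs searched are given beside their share in all genes. The E-box CACGTG was present for 11% of higher genes, 12.1% of lower genes and 12.2% of all genes. The AP-1 site TGANTCA was present for 10.2% of higher, 10.7% of lower and 5.88% of all genes, the cAMP response element TGACGTCA for 4.55%, 1.79% and 3.88%, and the related core TGACATCA for 3.79%, 3.21% and 2.18%.

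The ER chaperone list had its called genes mainly on the other side. These proteins fold and quality-control new secretory proteins and are induced mainly by the ATF6 and XBP1 branches of the unfolded protein response. Of 34 members compared, 9 were at least 2-fold higher with ManGn and 1 was lower, beside 3.6% and 3.55% of all genes, and the list median was 0.52. Hspa5, the abundant ER chaperone BiP, was at 851.54 FPKM with ManGn against 258.25 with the mock extraction, and at 517.07 with fOS and 573.83 with water. Hsp90b1, the ER form of HSP90, was at 1116.87 against 442.95 FPKM, and the disulfide isomerase Pdia4 at 111.49 against 39.09. Creld2 and Manf, both secreted ER stress proteins, had log2 ratios of 1.46 each. ManGn held the highest of the 4 values for 21 of the 34 members and the mock extraction the lowest for 14, against 18.1% and 13.1% of all genes compared. The 1 lower member was Herpud1, which is also on the ATF4 list.

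CC chemokines, the secreted proteins that draw monocytes and T cells, held several genes higher with ManGn. Of 7 compared, 4 were at least 2-fold higher and none was lower, beside 3.6% and 3.55% of all genes. Ccl2, the main monocyte attractant, was at 44.27 FPKM with ManGn against 4.44 with the mock extraction, and at 36.59 with fOS and 1.91 with water. Ccl3 was at 576.01 against 108.82 FPKM, and at 103.97 with fOS and 124.69 with water. Ccl4 was at 95.97 against 13.62 FPKM, with 632 estimated reads against 90, and at 13.67 with fOS and 10.73 with water. Ccl3 and Ccl4 thus stood high in the ManGn library alone, whereas Ccl2 was near the same level with fOS. Ccl7 was at 1.43 against 0.22 FPKM, a log2 ratio of 2.26 that rests on 11 estimated reads against 2, a read ratio of 5.52 (1.21 to 51.3). With a pseudocount of 1 its log2 ratio was 0.99, under 2-fold, which left 3 higher CC chemokines. The read ratio was 10 for Ccl2 (7.1 to 14.5), 5.29 for Ccl3 (4.92 to 5.71) and 7.05 for Ccl4 (5.65 to 8.89).

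CXC chemokines divided. The neutrophil attractant Cxcl2 was at 46.57 FPKM with ManGn against 5.13 with the mock extraction, a read ratio of 9.07 (6.89 to 12.1), and at 2.45 with fOS and 1.49 with water. Cxcl10, an attractant of activated T cells induced by interferon, was at 3.38 against 0.9 FPKM, and at 3.39 with fOS and 0.54 with water. Cxcl14 was at 3.36 against 0.11 FPKM. The list therefore had 3 of 6 members at least 2-fold higher, at low levels except for Cxcl2, and 1 with a filter at 5 FPKM. Among all genes 3.6% were higher and 3.55% lower. The scavenger-receptor chemokine Cxcl16 went the other way, at 24.53 against 62.15 FPKM, as did Pf4, platelet factor, at 2.17 against 4.72, which was within 2-fold with a pseudocount of 1.

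NF-κB targets were higher as a subset, not as a whole. Of 37 listed, 30 were compared, 12 were at least 2-fold higher and 1 was lower, beside 3.6% and 3.55% of all genes. The median was 0.14. The Ccl2, Ccl3, Ccl4 and Cxcl2 genes above are among the 12. Tnf, the tumour necrosis factor gene, was at 73.61 FPKM with ManGn against 13.93 with the mock extraction, and at 36.4 with fOS and 9.88 with water. Nos2, the inducible nitric oxide synthase, was at 3.47 against 0.42 FPKM, and was listed at 0 with fOS and at 6.82 with water. Ptgs2, the inducible cyclooxygenase, was at 2.51 against 0.45, and at 1.76 with fOS and 1.83 with water. For Nos2 the highest of the 4 values was in water, so its position depended on which control stood beside ManGn. Relb, a subunit of NF-κB itself, was the lower member, at 5.18 against 11.58 FPKM, and was named after its value was seen. The itaconate enzyme Irg1 was at 14.6 against 4.59 FPKM, and the mycobacterial glycolipid receptor Clec4e at 137.46 against 53.61. Clec4e was at 103.85 with fOS and 13.98 with water.

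The interleukin-1 family held 1 gene far from the rest. Il1rn, which encodes the receptor antagonist that blocks interleukin-1, was at 312.69 FPKM with ManGn against 31.47 with the mock extraction, a 9.94-fold difference, and at 82.73 with fOS and 6.03 with water. It was the most abundant of the 20 highest genes. Of the other 11 members compared, none was at least 2-fold higher. Txnip, an arrestin that also binds the NLRP3 inflammasome, was lower, at 117.41 against 418.72 FPKM, and at 92 with fOS and 1084.61 with water. The Dectin-2 gene Clec4n, a receptor for mannose-rich glycans, was at 7.3 against 0.81 FPKM, and at 6.68 with fOS and 0.44 with water. Mrc1, the macrophage mannose receptor, was at 1.06 against 3.43 FPKM. The list of C-type lectins and lectin signalling had members on both sides, with 3 of 23 higher and 3 lower, beside 3.6% and 3.55% of all genes. The lower members were Mrc1, Clec4a1, at 1.12 against 2.89 FPKM, and the signalling adaptor Card9, at 23.41 against 52.42. With a filter at 5 FPKM 1 of 20 was lower, and Clec4a1 was within 2-fold with a pseudocount of 1.

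Immediate-early factors and their feedback genes were higher in part. AP-1 and EGR factors are made within minutes of growth factor or pattern receptor signals through ERK. Of 25 members, 9 were at least 2-fold higher and 1 was lower, beside 3.6% and 3.55% of all genes. The median was 0.37. Fosl1, an AP-1 subunit, was at 8.39 FPKM with ManGn against 1.11 with the mock extraction, and at 9.73 with fOS and 1.52 with water. Egr2 was at 16.11 against 2.96 FPKM, a read ratio of 5.44 (4.33 to 6.91), and at 1.81 with fOS and 6.99 with water. Egr3 was at 11.12 against 1.98 FPKM, and at 1.73 with fOS and 2.62 with water. Egr2 and Egr3 were highest with ManGn among the 4 libraries, and Fosl1 was near its fOS value. On the list of ERK feedback and Sprouty genes 3 of 16 were higher and none was lower, with a median of 0.23. With a filter at 5 FPKM 1 of 10 was higher, with a median of 0.08. Dusp5, a nuclear ERK phosphatase, was at 3.11 against 0.35 FPKM, and at 4.1 with fOS. Phlda1 was at 6.55 against 1.27. Spred3 was at 2.16 against 0.89 FPKM and at 3.13 with water, and was within 2-fold with a pseudocount of 1. Klf4 was the lower member of the AP-1 and EGR list, at 9.81 against 30.36 FPKM, and at 4.65 with fOS and 11.94 with water. The proto-oncogene Myc was at 4.7 against 1.12 FPKM, and at 8.78 with fOS and 0.79 with water.

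**Figure D4:**
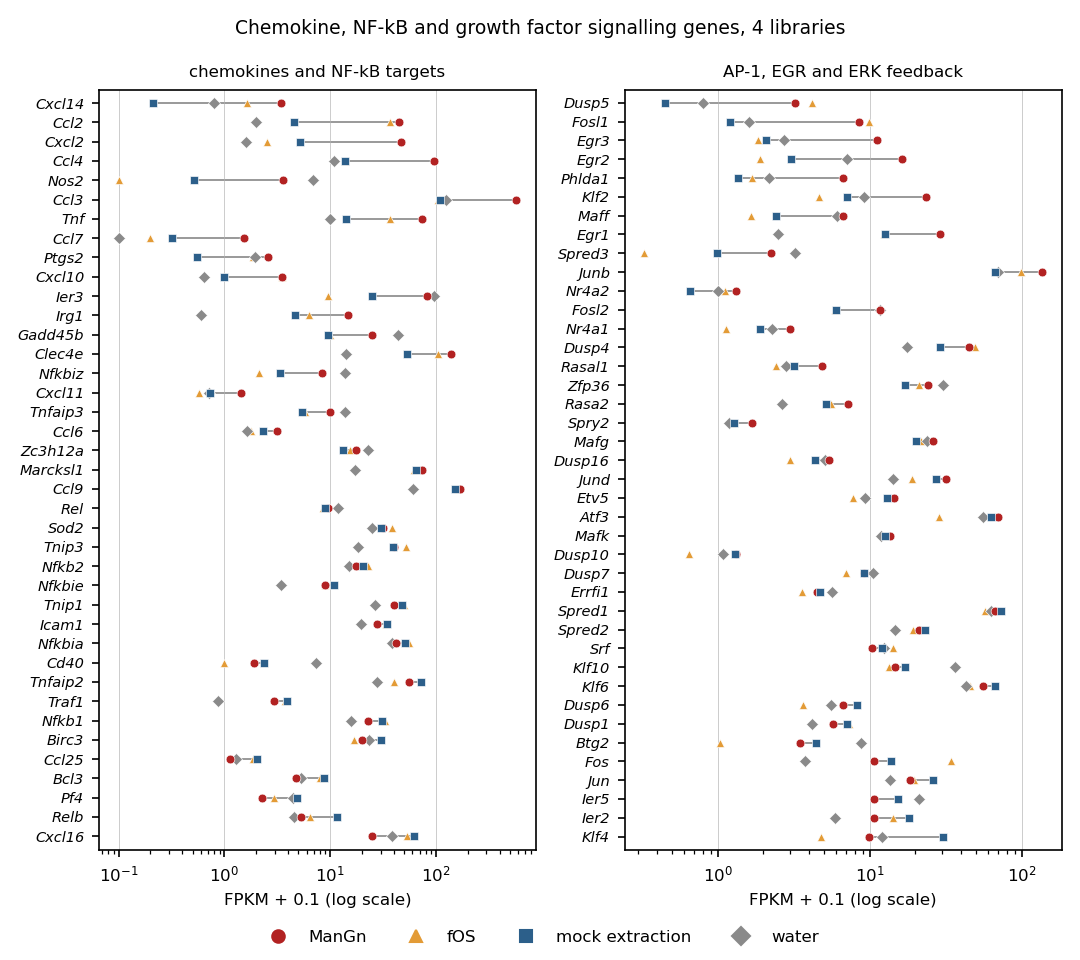
FPKM + 0.1 on log axes in the ManGn (red circles), fOS (orange triangles), mock extraction (blue squares) and water (grey diamonds) libraries, for chemokine and NF-κB genes on the left and AP-1, EGR and ERK feedback genes on the right, ordered by the log2 ratio of ManGn over mock extraction. A grey line joins ManGn and the mock extraction. The widest gap in the left panel is that of Cxcl14 at the top. Below it, Ccl2, Cxcl2, Ccl4 and Ccl3 also have ManGn to the right. The bottom rows, such as Cxcl16 and Klf4, have the mock extraction to the right.

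Several iron and metal genes were higher with ManGn. Of 20 compared, 6 were at least 2-fold higher and 1, the plasma ferroxidase Cp, was lower, beside 3.6% and 3.55% of all genes. The list median was 0.51. Fth1, the ferritin heavy chain that stores iron, showed the largest FPKM difference of any gene, 8049.48 with ManGn against 3447.13 with the mock extraction, and was at 6193.41 with fOS and 2736.55 with water. The ferritin light chain Ftl1 was at 4561.58 against 2304.73 FPKM, just under 2-fold. Hmox1, which releases iron from haem, was at 267.55 against 55.88 FPKM, a read ratio of 4.78 (4.45 to 5.15), and at 122.86 with fOS and 92.09 with water. The metallothioneins Mt1 and Mt2, which bind zinc and copper, had log2 ratios of 1.33 and 1.21. Mt2 was at 535.93 with ManGn against 231.76 with the mock extraction, and at 127.82 with fOS and 156.55 with water. ManGn held the highest of the 4 values for 10 of the 20 genes and the lowest for none, against 18.1% and 16.8% of all genes.

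Hmox1 and the ferritins are also on the list of NRF2 targets, the genes of the antioxidant response. Of its 31 members, 7 were at least 2-fold higher and none was lower, beside 3.6% and 3.55% of all genes. The list median was 0.30. Gclm, a subunit of the enzyme that starts glutathione synthesis, was at 29.11 FPKM with ManGn against 8.63 with the mock extraction, and at 54.39 with fOS and 9.46 with water. Srxn1, sulfiredoxin, was at 42.38 against 13.7 FPKM, and at 48.3 with fOS and 7.07 with water. For both genes fOS held a higher value than ManGn, and over the list fOS held the highest value for 18 of 31 members and ManGn for 6, against 31.2% and 18.1% of all genes.

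The hypoxia list had a median above the mock extraction and below water. It holds targets of the oxygen-sensitive factor HIF. Of 31 members, 10 were at least 2-fold higher with ManGn and none was lower, beside 3.6% and 3.55% of all genes. The median was 0.42. Over water the median was -0.64 for ManGn, -2.64 for fOS and -1.46 for the mock extraction. Hilpda, a lipid droplet protein that inhibits lipolysis, was 1 of 5 genes with their highest value in the ManGn library, at 75.73 FPKM with ManGn against 7.28 with the mock extraction, and at 10.06 with fOS and 20.89 with water. Adm, the peptide hormone adrenomedullin, was at 27.13 against 5.83 FPKM, and at 0.13 with fOS and 66.93 with water. Egln3, an oxygen-sensing prolyl hydroxylase, was at 2.62 against 0.37 FPKM, and at 0.03 with fOS and 3.57 with water. Water held the highest value for 26 of the 31 genes and fOS the lowest for 29, against 31.4% and 30.3% of all genes. Among 24 glycolysis genes 3 were higher and none was lower. The glucose carrier Slc2a1 was at 164.02 against 63.54 FPKM, and the neuronal-type enolase Eno2 at 49.44 against 14.87, with 2.45 with fOS and 113.37 with water.

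Genes of the lysosome were near level as a list, and the proton pump that acidifies lysosomes was higher throughout. All 19 subunits of the vacuolar ATPase had a log2 ratio above 0, with a median of 0.49. Of these, 2 were at least 2-fold higher, beside 3.6% of all genes. Atp6v0d2, the subunit form found in osteoclasts and in activated macrophages, was at 139.89 FPKM with ManGn against 12.35 with the mock extraction, and at 29.81 with fOS and 5.2 with water. Its reads were 3545 against 314, a ratio of 11.3 (10.1 to 12.8). ManGn held the highest value of the 4 libraries for 13 of the 19 subunits, fOS for 6, and the mock extraction and water for none, against 18.1%, 31.2%, 19.3% and 31.4% of all genes. Of 48 lysosomal hydrolases and membrane proteins, 2 were higher and 2 lower, near the 3.6% and 3.55% of all genes. The median was 0.03. Ctsd, the aspartic protease cathepsin D, was at 2340.5 against 883.3 FPKM, and at 1416.53 with fOS and 674.81 with water. The lower members were Ctsf, cathepsin F, at 14.89 against 33.22 FPKM, and Sgsh, which degrades heparan sulfate, at 5.96 against 13.9. The difference in Ctsd was therefore not shared by the list.

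Several genes known from osteoclasts and tissue-remodelling macrophages were among those furthest above the mock extraction with ManGn. Spp1, the secreted phosphoprotein osteopontin, was at 6087.27 FPKM with ManGn against 1687.48 with the mock extraction, and at 1567.32 with fOS and 946.41 with water. Mmp12, macrophage elastase, was at 14.41 against 0.6 FPKM, with 519 reads against 22, a ratio of 23.7 (15.5 to 38.1), and at 1.75 with fOS and 0.33 with water. Pdpn, the membrane mucin podoplanin, was at 7.24 FPKM with ManGn, an estimated 131 reads, and was listed at 0 in the mock extraction and water libraries and at 0.16 with fOS. These 3 genes were highest in the ManGn library of the 4. Car2, the carbonic anhydrase that feeds protons to the osteoclast pump, was at 22.95 against 5.4 FPKM, and Acp5, tartrate-resistant acid phosphatase, at 4.13 against 1.32. Acp5 was 1 of 4 osteoclast markers in the table. Of the others, Ctsk was at 206.16 against 111.84 FPKM, within 2-fold, and Ocstamp and Mmp9 were under 1 FPKM in every library. The osteoclast list as a whole had 4 of 23 members higher and 2 lower, beside 3.6% and 3.55% of all genes. Its median was 0.11. Siglec15, a sialic acid-binding receptor, was among the lower members, at 0.39 against 1.38 FPKM, and was within 2-fold with a pseudocount of 1.

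Among 13 matrix proteases and their inhibitors 5 were at least 2-fold higher and 1 was lower, beside 3.6% and 3.55% of all genes. The median was 0.63, and was 0.09 with no filter on FPKM. Plau, the urokinase plasminogen activator, was at 124.22 FPKM with ManGn against 46.49 with the mock extraction, and its receptor Plaur at 80.57 against 27.13. A granzyme B inhibitor relative, Serpinb9b, was at 19.82 against 2.42 FPKM, and at 9.1 with fOS and 0.43 with water. Npy, neuropeptide Y, was at 15.09 against 0.56 FPKM, with 85 reads against 3, a ratio of 28.4 (9.41 to 141). Genes of fatty acid handling also stood out one by one. Fabp4, a fatty acid carrier of adipocytes and macrophages, was at 44.97 against 7.52 FPKM, and at 22.87 with fOS and 1.28 with water. Cd36, a scavenger receptor for oxidized lipid, was at 177.62 against 62.83 FPKM, and at 233.68 with fOS and 35.35 with water. The list of lipid uptake and storage had 3 of 26 higher and 2 lower, and the cholesterol exporter Abcg1 was one of the lower, at 19.74 against 44.38 FPKM.

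Some genes of the macrophage surface and its phagocytic receptors were lower with ManGn. Of 27 macrophage identity genes, 6 were at least 2-fold lower and 1 was higher, beside 3.55% and 3.6% of all genes. On this list 22 were below 0, with a median of -0.36. The mock extraction held the highest of the 4 values for 17 of the 27, against 19.3% of all genes. The median over water was 0.23 for ManGn and 0.86 for the mock extraction. Itgam, the complement receptor chain CD11b, was at 49.82 FPKM with ManGn against 135.86 with the mock extraction, and at 44.44 with fOS and 103.45 with water. Maf, a transcription factor of resident macrophages, was at 0.71 against 4.21 FPKM, and at 1.03 with fOS and 2.6 with water. The 1 higher member was Itgax, the CD11c chain shared with dendritic cells, at 9.7 against 4.35 FPKM, and it was named after its value was seen. The other 4 dendritic cell markers in the table were under 1 FPKM in every library. The standard macrophage markers, chosen for that role, all had a lower value with ManGn except Cd14. Itgam and Mrc1 were at least 2-fold lower. Cd68 was at 1216.07 against 1324.26 FPKM, Lyz2 at 6219.11 against 6770.22, and Emr1, the F4/80 antigen, at 30.08 against 39.59, all within 2-fold. Sfpi1, at 177.01 against 207.02, Fcgr3, at 74.03 against 99.15, and Ptprc, at 60.97 against 85.83, were also within 2-fold. Csf1r, the receptor for the macrophage growth factor, was at 280.9 against 525.8 FPKM. Cd14, the endotoxin co-receptor, was at 366.92 against 253.59, and both genes were within 2-fold. Lyz1, one of the 10 genes with the largest FPKM differences, was at 5011.82 against 6684.26, a log2 ratio of -0.42, and shares much of its sequence with Lyz2.

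Of 24 Fc receptor, ITAM adaptor and complement genes, 6 were lower and none was higher, beside 3.55% and 3.6% of all genes. The list median was -0.52. Complement C3 was at 1.32 FPKM with ManGn against 6.26 with the mock extraction, and at 2.46 with fOS and 4.46 with water. The activating receptor Pira1 was at 14.77 against 37.97 FPKM and its inhibitory partner Lilrb3 (paired immunoglobulin-like receptor B) at 8.51 against 21.43. Pira genes are near-identical copies, so reads could be divided among them uncertainly. Fcgr2b, the inhibitory IgG receptor, was at 31.01 against 67.44 FPKM, and at 33.12 with fOS and 16.91 with water. The mock extraction held the highest of the 4 values for 16 of the 24 genes, and water the lowest for 17, against 19.3% and 39.8% of all genes. ManGn was thus below the mock extraction and above water over this list, with a median over water of 0.67.

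Some MHC class II genes, which present peptides to helper T cells, were lower with ManGn. Of 11 members, 4 were at least 2-fold lower and none was higher, beside 3.55% and 3.6% of all genes. The list median was -0.65. H2-DMb1, a subunit of the peptide editor, was at 0.34 FPKM with ManGn against 2.6 with the mock extraction, and at 0.5 with fOS and 6.02 with water. That rests on 5 reads against 37, a ratio of 0.136 (0.0416 to 0.346). H2-Ab1, a class II chain, was at 1.24 against 3.21 FPKM, and at 0.87 with fOS and 11.19 with water. Cd74, the invariant chain, was the abundant member, at 194.55 against 394.29 FPKM, and at 124.16 with fOS and 697.97 with water. Water held the highest value for 7 of the 11 genes and fOS the lowest for 6, against 31.4% and 30.3% of all genes. With a filter at 5 FPKM only 1 member was lower, Cd74, whose log2 ratio of -1.02 was -0.99 after centring on the median of all genes. H2-Ab1 was within 2-fold with a pseudocount of 1. The Toll-like receptors Tlr8, at 1.7 against 5.97 FPKM, and Tlr9, at 3.15 against 7.73, were the 2 lower members among 24 receptors and adaptors, and none was higher.

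**Figure D5:**
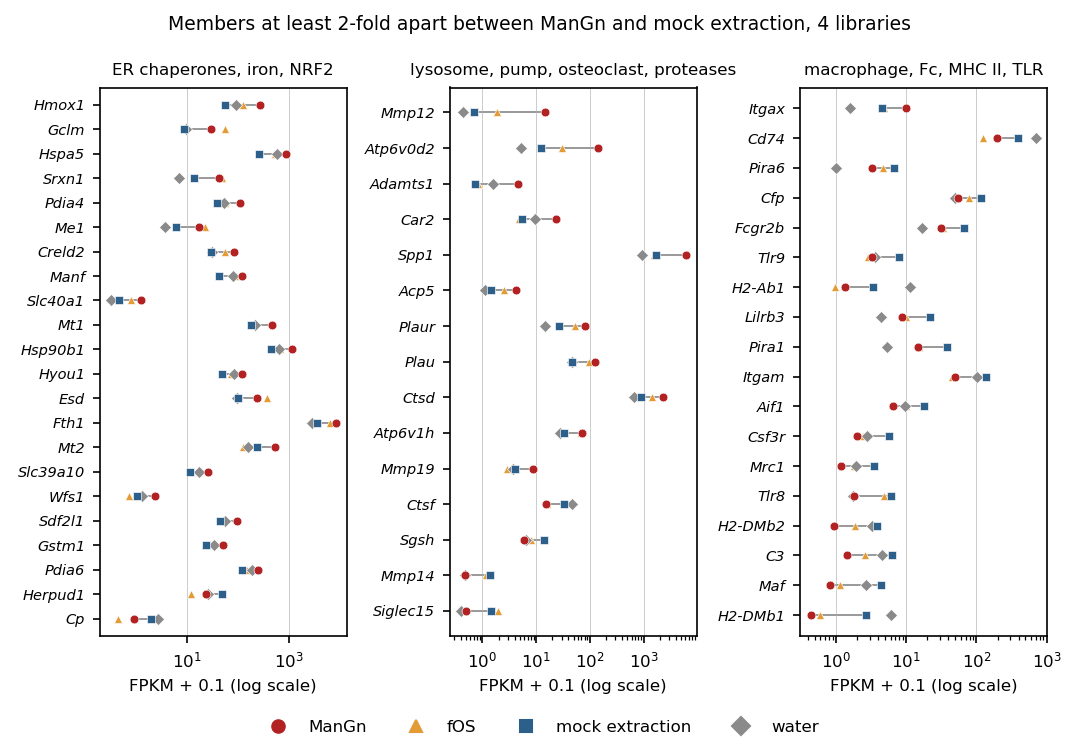
FPKM + 0.1 on log axes in the ManGn (red circles), fOS (orange triangles), mock extraction (blue squares) and water (grey diamonds) libraries, for members at least 2-fold apart between ManGn and the mock extraction in 3 sets of lists, leaving out genes not reported here, with a grey line joining that pair. In the left panel ManGn is to the right for all but Herpud1 and Cp. In the middle panel it is to the right down to Mmp19, and in the right panel only Itgax has it there.

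Some genes that slow growth or promote cell death were lower with ManGn. Bbc3, the BH3-only killer protein PUMA, was at 4.88 FPKM with ManGn against 26.46 with the mock extraction, and at 2.98 with fOS and 42.18 with water. Mxd4, which opposes MYC, was at 1.67 against 9.19 FPKM, and at 2.46 with fOS and 24.32 with water. Pik3ip1, a brake on PI3 kinase, was at 0.3 against 2.36 FPKM, and at 0.16 with fOS and 10.04 with water. In these 3 genes, water was highest, and both ligand libraries were below both control libraries. Among all genes 3.55% were lower and 3.6% higher. Of 22 genes linked to FOXO factors, 5 were at least 2-fold lower and 1 was higher. On that list 9 were above 0, with a median of -0.13, and 3 were lower with a pseudocount of 1. In the BCL2 family 3 of 16 were lower, Bbc3, Bcl2l11 and Bmf, all encoding BH3-only proteins (Bcl2l11 within 2-fold with a pseudocount of 1), and the 1 higher member was the survival gene Bcl2l1, at 47.13 against 20.19 FPKM, and at 20.35 with fOS and 7.83 with water. Of 32 p53 targets 6 were lower and 2 higher, beside the same 3.55% and 3.6%, with 15 above 0 and a median of -0.02. Gadd45a, a growth arrest gene, was at 3.98 against 21.2 FPKM, and at 4.02 with fOS and 7.24 with water, so that the mock extraction was highest. Plk2, a kinase, was at 31.41 against 3.53 FPKM, a log2 ratio of 3.12.

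Interferon-stimulated genes differed little between the 2 libraries. The median of the 45 compared was -0.11. Of these, 1 was at least 2-fold higher with ManGn and none was lower, beside 3.6% and 3.55% of all genes. The 1 was Irf7, the interferon regulatory factor that sustains the interferon loop, at 16.85 FPKM with ManGn against 5.73 with the mock extraction, and at 65.2 with fOS and 6 with water. Ifitm3, a restriction factor for virus entry, was at 618.03 against 335.2 FPKM, and at 618.36 with fOS and 322.56 with water. Isg15 and Usp18, which carry out and reverse ISGylation, were at 11.06 against 8.06 and at 8.26 against 6.22 FPKM, and were picked as familiar members. The median of the list over water was 0.57 for ManGn, 1.25 for fOS and 0.31 for the mock extraction, and fOS held the highest value for 37 of the 45 genes, against 31.2% of all genes. The STING and nucleic acid sensing list had 1 of 23 higher, Irf7 again, and none lower. Trex1 was at 9.9 against 19.02 FPKM, and at 23.89 with fOS and 14.42 with water.

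The machinery that makes and breaks N-glycans and free oligosaccharides was near level. Of 50 members, none was at least 2-fold higher and 1 was lower, beside 3.6% and 3.55% of all genes. The median was 0.05. The lower member was Man2b1, the lysosomal α-mannosidase, at 21.94 FPKM with ManGn against 46.17 with the mock extraction, and at 28.44 with fOS and 52.39 with water. The enzymes closest to the disaccharide were chosen for their role. Manba, the β-mannosidase that cleaves the Manβ1-4GlcNAc bond, was at 19.43 against 26.75 FPKM. Man2c1, the cytosolic α-mannosidase, was at 14.73 against 15.1, and Engase, which processes free oligosaccharides in the cytosol, at 2.19 against 3.11. None of the 3 reached 2-fold.

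Ribosomal protein genes differed by small steps, nearly all to the same side. Of 80 compared, 76 were below a log2 ratio of 0, with a median of -0.37, and only Rpl26 passed 2-fold, as a higher gene at a low level. Among all genes 3.6% were higher and 3.55% lower, with a median of -0.02. None of the lists in this paragraph had a larger share of called genes. The median was -0.36 for 46 genes of the large subunit and -0.39 for 32 of the small subunit. Rpl23a was at 2112.04 FPKM with ManGn against 3277.78 with the mock extraction, and at 2339.79 with fOS and 4456.51 with water. Water held the highest value for 77 of the 80 genes, against 31.4% of all genes. Proteasome subunits leaned the other way, with 41 of 46 above 0 and a median of 0.28, and none passed 2-fold. Cell cycle and DNA replication genes had 62 of 76 below 0 and a median of -0.35, with 2 lower, Cdkn2c and E2f7, the second within 2-fold with a pseudocount of 1. Respiratory chain subunits had a median of 0.06, and 1 of 78 was lower, the muscle-type subunit Cox6a2, at 1.35 against 10.34 FPKM, and at 2.72 with fOS and 22.25 with water.

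The position of the water library showed how far a call depended on the control. Of the 392 higher genes, 201 were also at least 2-fold higher with ManGn than with water, 177 were within 2-fold of water and 14 were at least 2-fold lower. Chemokines, Il1rn, Atp6v0d2, Mmp12 and Spp1 belonged to the 201, while Nos2, Adm and Hspa5 did not. Of the 387 genes lower with ManGn, 147 were also at least 2-fold lower than with water, 220 were within 2-fold and 20 were at least 2-fold higher. The mock extraction was itself at least 2-fold below water for 140 of the 392, and at least 2-fold above water for 159 of the 387. Bbc3, Mxd4, Txnip and the class II genes belonged to the 147, and Atf4, Ddit3 and Trib3 to the 220.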

How the data were processed

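RNA was taken from 4 RAW264.7 cultures, 1 per condition, grouped by the treatment given in the sample labels. The authors deposited FPKM values per gene, made with RSEM. The version, like the aligner, annotation and genome build, was not given in the sources used here. The table holds 17655 genes and has no column of another study, and sheets of ratios between each ligand and its own control were not used. Ratios were log2 of (FPKM + 0.1), ManGn over mock extraction, for genes of at least 1 FPKM in 1 of the 2 libraries, with calls at 2-fold. With 1 library per condition no test was run. The gene lists (1723 entries, 1707 in the table) and the members were chosen with earlier results of these data known, so their counts are descriptions.

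Reads were estimated from whole-read steps in low FPKM of genes with 1 length in GENCODE M21; 60.3 to 63.2% of 412 to 462 such values lay within 0.1 of a whole read. Exact (Clopper-Pearson) 95% intervals on read ratios cover counting error only. Symbols not found were matched by Entrez Gene ID through RefSeq synonyms. Promoters came from RefSeq tables of GRCm38.p6.

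Named genes were the 20 highest and 20 lowest at 5 FPKM or more, leaving out small RNA and predicted genes, the 10 largest FPKM differences, and the 5 members furthest from 0 in every list. Atf4, Tnf, Klf4, Cp, Herpud1, Aars, Jdp2 and those marked in the text were chosen after their values were seen. Computations used Python 3.11.15, pandas 2.3.3, numpy 2.4.6 and scipy 1.17.1, and the counting scripts were tested on simulated data. Some genes that the rule names are not reported here.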

Additional observations from a re-analysis of the deposited data

How the results depend on the processing

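No paired analysis was possible because each condition had 1 library, and for the same reason no library could be left out. The counts of 392 higher and 387 lower genes depended on how low values were treated. They were 261 and 247 with a pseudocount of 1, 773 and 715 with no filter on FPKM, 194 and 227 with at least 5 FPKM, 975 and 1180 at 1.5-fold, and 166 and 132 at 3-fold. With at least 20 estimated reads there were 271 higher and 251 lower genes among 8072 with a length. A pseudocount of 0.01, centring on the median, scaling to the same upper quartile or the same sum of FPKM, and leaving out small RNA and predicted genes gave 296 to 427 higher and 310 to 411 lower genes, and no scaling moved the median of all genes by 0.1. Of 165 named genes past 2-fold, 144 stayed past it with a pseudocount of 1, 161 with the same upper quartile, 162 when centred and 163 with the same sum, and no sign turned. The filter at 5 FPKM left 124 of them, all past 2-fold. Depth limits low genes most. Reads could be estimated for 320 of the higher and 293 of the lower genes, and 132 of these calls concern genes under 20 estimated reads in both libraries.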

Other observations

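Small RNA genes took a large part of the ends of the distribution. Of 136 compared, 56 were at least 2-fold higher with ManGn and 35 were lower, with a median of 0.56, and they made up 10 of the 20 highest and 6 of the 20 lowest genes of at least 5 FPKM. Among 9960 other annotated genes 296 were higher and 310 lower. FPKM of such short transcripts rests on few bases, and their part in the counts is given above with them left out.

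Some host genes that carry small nucleolar RNAs in their introns were lower. Of 20 compared, 5 were at least 2-fold lower and none was higher, beside 3.55% and 3.6% of all genes. On this list 6 were above 0, with a median of -0.31. Snhg1 was at 29.2 FPKM with ManGn against 88.8 with the mock extraction, and at 68.87 with fOS and 114.99 with water. The Zfas1 gene, listed as 1500012F01Rik, was at 13.18 against 45.15 FPKM, and at 23.39 with fOS and 82.42 with water. Water held the highest value for 14 of the 20 genes and ManGn the lowest for 10, against 31.4% and 16.8% of all genes.

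Single genes outside the main groups stood apart as well. Id3, an inhibitor of helix-loop-helix factors, was listed at 0 with ManGn, against 4.1 FPKM and 53 estimated reads with the mock extraction, and at 21.56 with fOS and 0.11 with water. Its relative Id2 was at 23.5 against 7.09 FPKM, and at 39.18 with fOS and 4.6 with water. Gbp8, a guanylate-binding protein, was at 0.16 against 4.81 FPKM, with 4 reads against 119. Cd24a, a glycosylated surface antigen, was at 15.7 against 2.84 FPKM, and at 1.18 with fOS and 8.53 with water. The leukotriene enzyme Alox5 was at 17.6 against 47.03 FPKM, and at 8.25 with fOS and 54.47 with water. The tetraspanin Cd9 was at 454.74 against 157.55 FPKM, a read ratio of 2.89 (2.74 to 3.04), and at 166.38 with fOS and 191.03 with water. Saa3, an acute-phase apolipoprotein, was at 2.34 against 13.42 FPKM, and at 2.04 with fOS and 3.36 with water.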
